A study of Mus musculus with 12 samples.

Results

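The hippocampal transcripts described here are 7 genes of the chemokine system: the ligands *Ccl25*, *Cxcl12*, *Cxcl14*, *Cx3cl1* and *Ccl27a*, and the atypical chemokine receptors *Ackr1* and *Ackr3*. They were picked by name, out of the 26409 genes listed by Ensembl ID, after the difference between *Dek* knockout and wild-type (WT) mice had been seen for these same libraries. Their difference between genotypes is therefore a description without a test, whereas tests are given for the difference of that effect between the sexes, for male against female WT mice and for the order of the levels. The RNA came from microdissected hippocampus of mice aged 6 to 12 months, and 3 libraries were made for each genotype in each sex. The *Dek* cKO line, on a C57Bl/6 background, was founded by letting CMV-Cre remove floxed exons 3 and 4 of *Dek* in the germline. The Cre transgene was then bred out and the line was kept as a constitutive knockout, so the deletion was present in every cell type and throughout development. The labels number the mice within a group without naming litters, so p-values measure the spread between these samples.

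Chemokines are small secreted or membrane-held proteins that steer cells through G protein-coupled receptors, and they are grouped by the spacing of their first cysteines. Homeostatic chemokines are made without inflammation and place cells in resting tissue, and in the brain *Cxcl12* positions neural precursors while *Cx3cl1*, made by neurons, acts on the receptor of microglia. Atypical receptors bind chemokines but do not signal through G proteins, and they capture, carry or remove their ligands instead.

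The coding bases around the cysteine codons that name each class are shown because they tell the 5 ligands apart. Each run has 8 codons on either side, and capitals mark the cysteine codons.
*Ccl25*: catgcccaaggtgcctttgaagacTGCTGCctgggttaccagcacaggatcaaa
*Ccl27a*: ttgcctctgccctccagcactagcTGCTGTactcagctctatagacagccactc
*Cxcl12*: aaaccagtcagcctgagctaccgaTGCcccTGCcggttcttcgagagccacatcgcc
*Cxcl14*: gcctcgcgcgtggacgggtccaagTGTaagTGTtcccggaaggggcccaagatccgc
*Cx3cl1*: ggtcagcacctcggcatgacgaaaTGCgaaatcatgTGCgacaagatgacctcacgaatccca

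The cysteine codons were adjacent in *Ccl25* and *Ccl27a* (the CC class), 1 codon apart in *Cxcl12* and *Cxcl14* (CXC) and 3 codons apart in *Cx3cl1* (CX3C). These bases lie in GRCm38 (GENCODE M21) at chr8:4349885-4353926 (+) for *Ccl25*, chr4:41769921-41769974 (-) for *Ccl27a*, chr6:117171484-117171540 (+) for *Cxcl12*, chr13:56295891-56296125 (-) for *Cxcl14* and chr8:94772334-94778089 (+) for *Cx3cl1*. The runs of *Ccl25*, *Cxcl14* and *Cx3cl1* join 2 exons across an intron. All 4 coding forms of *Ccl25*, all 3 of *Cxcl12* and both of *Cxcl14* held their run, as did 5 of 8 of *Ccl27a* and 2 of 3 of *Cx3cl1*. The table has 1 value per gene, so it does not tell which form was transcribed. In signaling chemokine receptors an Asp-Arg-Tyr stretch takes part in coupling to G proteins. The coding sequence of *Ackr3* holds these codons once (in capitals) at chr1:90214217-90214273 (+), and that of *Ackr1* does not hold them. Only this stretch was searched for, and holding it does not show that a receptor couples to G proteins.
*Ackr3*: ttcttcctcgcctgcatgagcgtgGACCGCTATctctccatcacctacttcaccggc

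Values are in TPM, a unit corrected for transcript length and for the size of the library, so that levels of different genes can be compared. Differences are on the log2(TPM + 0.1) scale, with the standard error (SE) of a limma fit over the 18197 genes that averaged 0.1 TPM or more, and all 7 genes were among them. Genes were called where the adjusted p was under 0.05 and the fold change exceeded 1.2. A wider nominal rule asked for an unadjusted p under 0.05 and at least a 1.5-fold change. Libraries summed to between 825750 and 845553 TPM over the listed genes. Read counts are not kept in TPM, so the counting error of a value is unknown. *Dek* itself had 48.3 ± 2.58 TPM in WT and 7.23 ± 1.32 TPM in *Dek* cKO mice (SD, n = 6 each), with no overlap. The Y-linked gene *Eif2s3y* went against the sex label in 2 libraries, with 72.7 TPM in the one labelled female cKO replicate 3 and 0.111 TPM in the one labelled male cKO replicate 1. Female WT libraries carry names with the prefix C57 and all others CMV, so in any comparison with female WT mice the prefix differs together with the group.

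The largest difference between genotypes was that of *Ccl25*, the ligand of *Ccr9* that draws T cell precursors into the thymus and lymphocytes to the small intestine. It had 7.37, 7.51 and 5.68 TPM in the female WT libraries and 7.21, 9.19 and 6.22 TPM in the male WT libraries. In *Dek* cKO mice it had 13.7, 11.9 and 15.8 TPM in females and 14.9, 15.3 and 21.4 TPM in males. Every *Dek* cKO library stood above every WT library, and the highest was male cKO replicate 3. The means were 7.20 ± 1.21 TPM in WT and 15.5 ± 3.22 TPM in *Dek* cKO mice (SD, n = 6 each), a 2.16-fold ratio, or 1.99-fold without male cKO replicate 3. The log2 difference was 1.09 (SE 0.14), with 1.00 (SE 0.19) in females and 1.18 (SE 0.19) in males. By size it ranked 63 from the top among the 14160 genes that averaged 1 TPM or more. With only the male WT libraries as controls, which share the CMV prefix with all *Dek* cKO libraries, the difference was 1.03.

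*Ackr1*, which on venules and red blood cells binds many inflammatory CC and CXC chemokines, was the other gene whose genotypes did not overlap. It had 36.0, 39.7 and 42.7 TPM in female WT and 38.5, 44.1 and 42.1 TPM in male WT mice. In *Dek* cKO mice it had 63.3, 59.7 and 61.5 TPM in females and 57.5, 52.9 and 71.2 TPM in males. The highest value was again male cKO replicate 3, and the lowest *Dek* cKO value exceeded the highest WT value by a margin wider than the WT standard deviation. The means were 40.5 ± 2.99 and 61.0 ± 6.16 TPM (SD, n = 6 each), a 1.51-fold ratio. The log2 difference was 0.59 (SE 0.07), with 0.64 (SE 0.10) in females and 0.53 (SE 0.10) in males. It was 0.54 without male cKO replicate 3 and 0.55 against the CMV-named WT libraries alone.

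The calling rule took in 2 of the 7 genes, both higher, and it took in 0.137% of all tested genes as higher and 0.011% as lower. In 2 of the 7, all *Dek* cKO values lay above all WT values, which was so for 0.572% of tested genes, and in 0 of the 7 all lay below, which was so for 0.104%. Nothing is read from these counts, since the genes were chosen on this contrast. Neither *Ccl25* nor *Ackr1* was called when only the 3 CMV-named WT libraries served as controls, a comparison with fewer samples in which 10 genes were called in place of 27. *Ccl25* was also not called without the 2 libraries of conflicting sex, where its difference was 1.09.

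**Figure D1:**
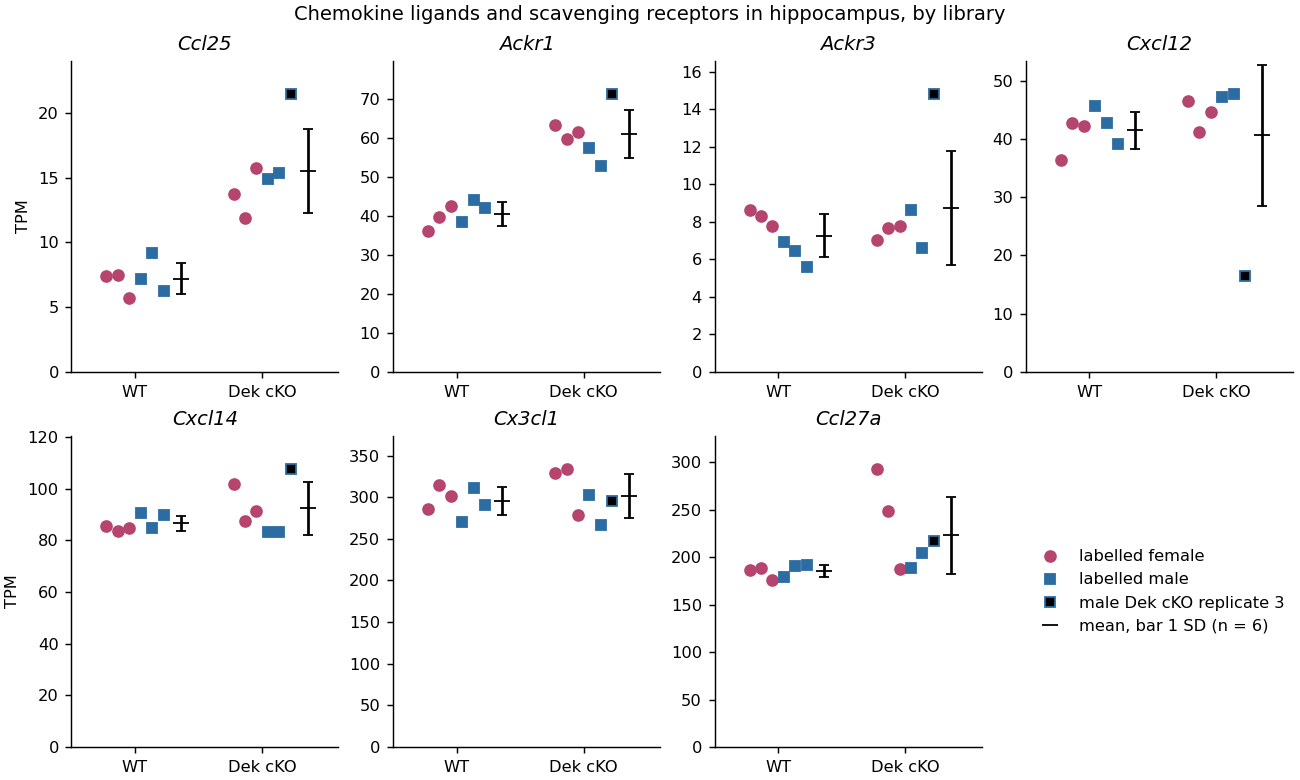
TPM of the 5 ligands and both receptors in each of the 12 libraries (y axis, from 0), by genotype (x axis). Circles are libraries labelled female, squares male, the black-filled square male cKO replicate 3, and bars the mean ± 1 SD of 6. The genotypes are apart for *Ccl25* and *Ackr1* and overlap for the other 5 genes.

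*Ccl27a*, a CC chemokine best known from skin keratinocytes, was unevenly distributed among the *Dek* cKO libraries. Its WT values were tight, from 176 to 191 TPM with a median of 188 TPM. In *Dek* cKO mice it had 292, 248 and 188 TPM in females and 188, 205 and 217 TPM in males. The 4 highest values were all from *Dek* cKO mice, and the remaining 2 *Dek* cKO values lay within the WT range. The log2 difference was 0.25 (SE 0.09), with 0.38 (SE 0.13) in females and 0.12 (SE 0.13) in males. It fell to 0.17 without female cKO replicate 1. Without the 2 libraries of conflicting sex it was 0.55 in females and 0.17 in males. *Ccl27a* has near-identical copies in the mouse genome, so the reads behind its value may be split among them, and *Ccl27b* was not analysed here.

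*Cxcl12*, the ligand of *Cxcr4*, lay between 36.4 and 47.7 TPM in all libraries but 1. WT values ran from 36.4 to 45.7 TPM with a median of 42.4 TPM. In *Dek* cKO mice they were 46.4, 41.1 and 44.6 TPM in females and 47.3, 47.7 and 16.4 TPM in males. Of the *Dek* cKO libraries, 3 lay above the WT range. Male cKO replicate 3 was the only library below the WT range, at 0.384 times the median of the other 11. The log2 difference was -0.11 (SE 0.22), and 0.13 (SE 0.06) without that library. In males it was -0.35 (SE 0.31), and 0.16 without that library, so that 1 mouse set the sign.

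*Ackr3*, the scavenging receptor of *Cxcl12*, was at its highest in the same library. It had 8.62, 8.29 and 7.77 TPM in female WT and 6.92, 6.43 and 5.60 TPM in male WT mice. In *Dek* cKO mice it had 7.04, 7.66 and 7.77 TPM in females and 8.62, 6.63 and 14.8 TPM in males. The genotypes overlapped, and outside male cKO replicate 3 every value lay between 5.60 and 8.62 TPM. The log2 difference was 0.22 (SE 0.18), with -0.13 (SE 0.23) in females and 0.58 (SE 0.23) in males. It was 0.06 without that library and 0.41 against the CMV-named WT libraries alone.

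*Cxcl14*, made by subsets of interneurons in the hippocampus, and *Cx3cl1*, whose soluble form is shed from neurons, had the smallest differences after these. *Cxcl14* ranged from 83.7 to 90.8 TPM in WT and from 83.1 to 107.5 TPM in *Dek* cKO mice, with a log2 difference of 0.09 (SE 0.06). Its 2 highest libraries, at 101.8 and 107.5 TPM, were female cKO replicate 1 and male cKO replicate 3. *Cx3cl1* ranged from 270.2 to 315 TPM in WT and from 267 to 333 TPM in *Dek* cKO mice, with a log2 difference of 0.02 (SE 0.06).

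**Figure D2:**
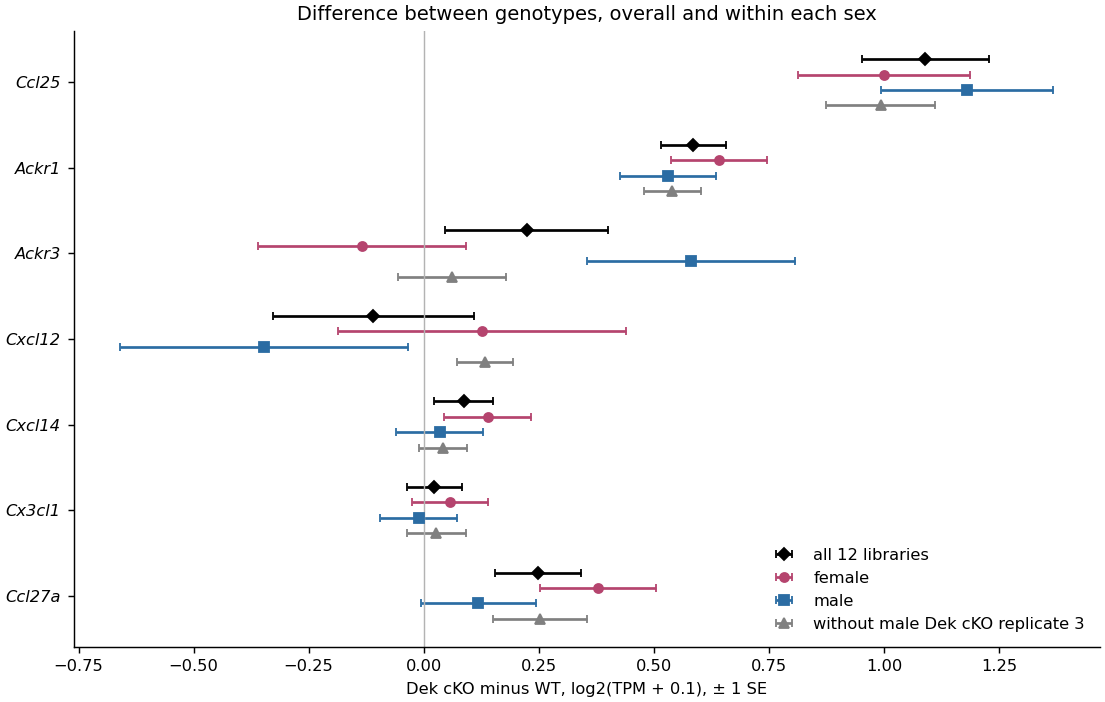
Log2 difference between *Dek* cKO and WT mice (x axis, log2(TPM + 0.1), bars ± 1 SE) for each gene (y axis), over all 12 libraries (black), in females, in males and without male cKO replicate 3 (grey). *Ccl25* and *Ackr1* lie near 1.09 and 0.59 in every version, and the male value of *Cxcl12* lies below 0.

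Whether the effect of *Dek* loss differed between the sexes was tested as an interaction, with adjustment over all 18197 genes. No gene of the 7 passed in limma, with adjusted p-values from 0.966 to 0.979, and 0.0% of all tested genes were called. Groups follow the labels, and each *Dek* cKO group holds a library whose *Eif2s3y* goes against its sex label. The contrast thus mixes the sexes within these groups and can miss a true difference. Without the libraries of conflicting sex 3 genes were called, none of them among the 7. At an unadjusted p under 0.05 there was 1 gene of the 7, against 4.23% of all tested genes. That gene was *Ackr3*, whose effect in females minus that in males was -0.71 (95% confidence interval -1.42 to -0.01, limma unadjusted p = 0.0468). Without male cKO replicate 3 it was -0.39 (limma unadjusted p = 0.0591). The interaction of *Ccl25* was -0.18 with an interval from -0.76 to 0.40, and that of *Ackr1* was 0.11 with an interval from -0.21 to 0.43. These intervals leave room for unequal effects in females and males. Without male cKO replicate 3 the interactions were -0.013 for *Ccl25* and 0.23 for *Ackr1* (limma unadjusted p = 0.0642), and without the libraries of conflicting sex -0.37 and 0.08. Leaving out male cKO replicate 2 brought that of *Ackr1* to 0.019. For *Ccl27a* the interaction was 0.26 (interval -0.13 to 0.65), and 0.38 without the libraries of conflicting sex (limma unadjusted p = 0.00621, adjusted p = 0.350). For *Cxcl12* it was 0.47 (interval -0.50 to 1.44), and it became -0.03 without male cKO replicate 3. The interval of *Cx3cl1* ran from -0.19 to 0.33. For *Cxcl14* the interaction was 0.10 (interval -0.19 to 0.40), and 0.23 without male cKO replicate 3 (limma unadjusted p = 0.0265, adjusted p = 1). Which gene of the 7 had an unadjusted p under 0.05 thus changed with that library.

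Between male and female WT mice, none of the 7 genes passed in limma, 0 of them at an unadjusted p under 0.05, and every adjusted p was 1. Of all tested genes 0.0% were called, and 3.63% had an unadjusted p under 0.05. The test also missed the Y-linked *Eif2s3y*, at 72.4 TPM or more in male WT and 0.993 TPM or less in female WT mice. Its estimate of spread includes the *Dek* cKO groups, each of which holds a library whose *Eif2s3y* goes against its sex label. The absence of calls therefore does not show that the sexes are alike. Without these libraries 4 genes were called, none of them among the 7. Of the 7, *Ackr3* had the widest gap. Its 3 male WT values all lay below its 3 female WT values, at means of 6.32 ± 0.667 and 8.23 ± 0.430 TPM (SD, n = 3 each), and the log2 difference was -0.38 (95% confidence interval -0.88 to 0.12). The male minus female WT difference was 0.13 for *Ccl25* (interval -0.28 to 0.54) and 0.08 for *Ackr1* (interval -0.15 to 0.30). It was between -0.05 and 0.07 for the other 4 genes. With male cKO replicate 3, which is outside this comparison, left out of the fit and of its estimate of spread, the same -0.38 had an unadjusted p of 0.0117 and an adjusted p of 0.963 in limma. Sex and library name prefix cannot be told apart in this comparison.

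By median TPM over the 12 libraries, the order was *Cx3cl1* (299), *Ccl27a* (189.7), *Cxcl14* (86.6), *Ackr1* (48.5), *Cxcl12* (42.7), *Ccl25* (10.5) and *Ackr3* (7.72). *Cx3cl1* stood above 98.8% of all listed genes by this measure, and *Ackr3* above 63.2%. The 6 neighbouring pairs were compared within libraries by an exact two-sided sign-flip permutation test, whose smallest p over 12 libraries is 0.000488. The gene above was higher in 12 of 12 libraries for the first 3 pairs, each with an adjusted p of 0.000977. *Cxcl12* was above *Ccl25* in 11 of 12 libraries (exact permutation test, adjusted p = 0.00146). In the remaining 2 pairs the upper gene was chosen for its high values in *Dek* cKO mice, so only WT libraries are tested. *Ackr1* was above *Cxcl12* in 9 of 12 libraries (mean log2 ratio 0.32) but in 3 of the 6 WT libraries (mean -0.03, exact permutation test, adjusted p = 0.825). *Ccl25* was above *Ackr3* in 9 of 12 libraries (mean 0.42) but in 3 of the 6 WT libraries (mean -0.02, exact permutation test, adjusted p = 0.906). Neither pair was separated beyond the spread between WT libraries. In the other 4 pairs the upper gene was higher in 6 of 6 WT libraries. Reads of *Ccl27a* split among its copies, or reads of *Cadm3* counted for *Ackr1*, could shift a level alike in every library. A comparison within libraries cannot detect such a shift.

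The signaling receptors and the proteases of these ligands were taken from lists of chemokine genes, and none was called. Of all tested genes 0.137% were called higher and 0.011% lower. *Ccr9*, the receptor of *Ccl25*, was between 0.251 and 0.649 TPM in WT and between 0.402 and 0.610 TPM in *Dek* cKO mice, with a log2 difference of 0.09 (SE 0.23). *Ccr10*, the receptor of *Ccl27a*, was also under 1 TPM in all 12 libraries (0.10, SE 0.23). *Cxcr4* had 3.85 ± 0.504 TPM in WT and 3.49 ± 1.30 TPM in *Dek* cKO mice (SD, n = 6 each), and its highest value, 5.58 TPM, was again that of male cKO replicate 3. *Cx3cr1*, the microglial receptor of *Cx3cl1*, had 19.2 ± 1.41 and 18.3 ± 2.59 TPM (SD, n = 6 each), with a log2 difference of -0.07 (SE 0.09). Its lowest value, 16.5 TPM, was that of male cKO replicate 3, close to 16.7 TPM in female cKO replicate 1. *Adam10* and *Adam17*, the proteases that shed *Cx3cl1*, had log2 differences of -0.05 (SE 0.04) and -0.03 (SE 0.07). *Dpp4*, which trims *Cxcl12*, was the most variable of the proteases, from 1.26 to 5.85 TPM in WT and from 0.390 to 5.52 TPM in *Dek* cKO mice.

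Beyond the 7, 62 chemokine genes were named in 4 lists (ligands, signaling receptors, atypical receptors and proteases), of which 57 were listed and 42 were tested. In limma 0 of the 42 were called, where 0.137% of all tested genes were called higher and 0.011% lower. A list of 42 would seldom hold a called gene at that share. The 1 gene with an unadjusted p under 0.05 was the one past the nominal rule, named below. By the nominal rule 1 was higher, against 2.09% of all tested genes, and 0 were lower, against 0.594%. The median log2 difference of the 42 was 0.01, and that of all tested genes was 0.02. Among the 25 ligands the median was 0.13, and differences ran from -0.81 to 0.98. Among the 10 signaling receptors it was -0.03, among the 4 atypical receptors -0.14 and among the 3 proteases -0.05. The gene past the nominal rule was *Ackr4*, an atypical receptor that takes up *Ccl19*, *Ccl21* and *Ccl25*. It was low in every library, at 0.161 ± 0.0908 TPM in WT and 0.369 ± 0.151 TPM in *Dek* cKO mice (SD, n = 6 each), with overlapping genotypes. Its log2 difference was 0.88 (SE 0.35, limma unadjusted p = 0.0263, adjusted p = 0.673). *Ackr4* did not pass the nominal rule with 0.5 or 1 TPM added before the log2 transform, or without female WT replicate 3, the library in which it is listed at 0.

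Male cKO replicate 3 was the highest of the 12 libraries for 7 of the 25 other ligands tested and the lowest for 3. The 4 ligands named next were chosen after their values were seen, as the most extreme. Others of the inducible kind were not at their highest there, such as *Ccl3* at 0.724 TPM (1.58 TPM in another library) and *Ccl5* at 1.75 TPM (2.61 TPM in another). *Cxcl10*, a ligand that draws in T cells, was at 26.5 TPM there and at most 1.61 TPM in the other 11 libraries. *Ccl12*, which attracts monocytes, was at 22.9 TPM and at most 2.14 TPM elsewhere. *Ccl2* and *Ccl7*, monocyte chemoattractants too, were at 4.69 and 3.76 TPM, and at most 0.915 TPM of either elsewhere. Of these 4, none was called in limma, and without that library their log2 differences were 0.45 for *Ccl2*, -0.07 for *Ccl7*, 0.32 for *Ccl12* and -0.01 for *Cxcl10*. The same library had 1267 TPM of the astrocyte gene *Gfap* and 529 TPM of the neuropeptide gene *Npy*, against at most 437 and 141 TPM elsewhere. It was the lowest library for 1 of 8 microglial markers, *P2ry12* at 8.21 TPM, and the highest for 1, and the 8 summed to 439.6 TPM there, within the WT range of 376 to 445 TPM. Their part in the low *Cxcl12* and high *Ackr3* of this mouse was not tested.

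**Figure D3:**
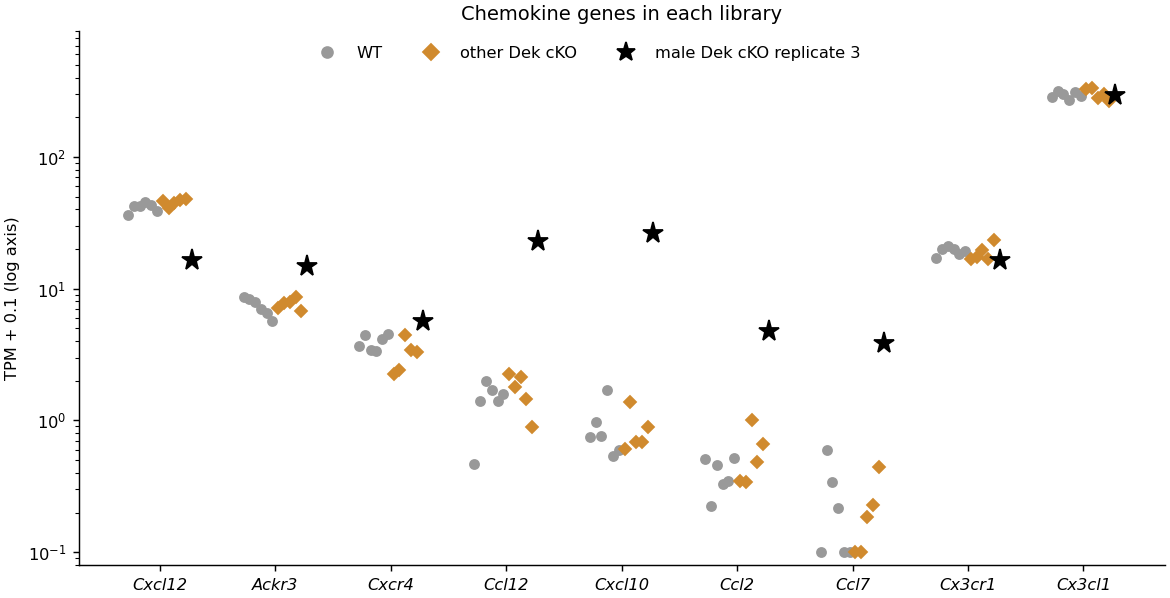
TPM + 0.1 (y axis, log scale) of 9 chemokine ligands and receptors (x axis) in each library, some of them chosen for their values in 1 library. Grey circles are WT libraries, orange diamonds the other 5 *Dek* cKO libraries and the star male cKO replicate 3. That library is lowest for *Cxcl12* (16.4 TPM) and, narrowly, for *Cx3cr1* (16.5 TPM). It is highest for *Ackr3*, *Cxcr4*, *Ccl12*, *Cxcl10*, *Ccl2* and *Ccl7*.

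In bulk tissue, fewer cells of a type and less RNA per cell cannot be told apart, so markers of cell types that could carry these transcripts were read beside them. Over 11 marker lists, 0 genes were called in limma. Of all tested genes 0.137% were called higher and 0.011% lower, so lists this short would seldom hold a called gene. List medians of the log2 difference lay between -0.08 (meningeal fibroblasts) and 0.17 (choroid plexus). The 8 endothelial markers summed to between 178 and 205 TPM in WT and between 166 and 203 TPM in *Dek* cKO mice. Of 8 markers of venous endothelium, where *Ackr1* is found in other tissues, 7 were tested. Their summed level was between 30.9 and 44.5 TPM in WT and between 31.0 and 52.0 TPM in *Dek* cKO mice, and their median log2 difference was 0.15. By the nominal rule 2 of the 7 were higher, *Lrg1* and *Selp*, against 2.09% of all tested genes. In *Lrg1* all *Dek* cKO values lay above all WT values, as in 0.572% of all tested genes, at 0.931 ± 0.326 and 2.10 ± 0.436 TPM (SD, n = 6 each, limma adjusted p = 0.109). *Selp* reached at most 0.391 TPM, and *Sele* is listed at 0 in 6 of the 12 libraries. *Ackr1*, at 36.0 TPM or more, was above *Lrg1*, *Selp* and *Sele* in every library. Another of the 8, *Vcam1*, was higher than those, between 12.4 and 14.9 TPM in WT and between 12.1 and 22.2 TPM in *Dek* cKO mice. Its log2 difference was 0.15 (SE 0.12), and the rest of the list is not given gene by gene. Part of the exonic bases of *Ackr1* lies inside an exon of *Cadm3*, so its level may include reads of that gene. Male cKO replicate 3 had the highest sum of the venous markers. The 5 blood markers, read because red cells can also carry *Ackr1*, summed to between 688 and 1547 TPM in WT and between 799 and 1350 TPM in *Dek* cKO mice. Choroid plexus markers swung from 71.7 to 3060 TPM within WT and from 46.8 to 4475 TPM within *Dek* cKO mice. Median log2 differences were 0.11 for microglia, 0.05 for astrocytes, 0.04 for interneurons, 0.16 for mural cells, 0.16 for Cajal-Retzius cells, -0.04 for excitatory neurons, -0.01 for endothelium and -0.07 for blood. The part of any cell type in the *Ackr1* and *Ccl25* values was not tested.

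Both separating genes overlap another gene in the annotation. *Ackr1* (ENSMUSG00000037872, chr1:173331886-173333750, minus strand) has 2 blocks of exons. The first block, 361 of its 1405 exonic bases (25.7%), lies wholly inside the last exon of *Cadm3*, which encodes a neuronal adhesion protein and runs in the same direction. Reads from these bases fit both genes even where strand is known. *Cadm3* was abundant, at 278 ± 18.2 TPM in WT and 295 ± 27.6 TPM in *Dek* cKO mice (SD, n = 6 each). Its log2 difference was 0.08 (SE 0.06, limma adjusted p = 0.887), with overlapping genotypes. The remaining exonic bases of *Ackr1* are its own, and the table does not give the reads of each part. Apart from *Cadm3*, the nearest tested genes on either side, *Crp* and *Aim2*, had log2 differences of 0.02 (SE 0.32) and 0.41 (SE 0.25). Neither of them was called.

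*Ccl25* (ENSMUSG00000023235, chr8:4325210-4360020, plus strand) shares 204 of its 7445 exonic bases (2.74%) with the first exon of *Elavl1*, which runs in the opposite direction and encodes an RNA-binding protein. *Elavl1* had 23.2 ± 0.946 TPM in WT and 22.5 ± 1.04 TPM in *Dek* cKO mice (SD, n = 6 each), and its log2 difference was -0.04 (SE 0.05, limma adjusted p = 0.932). The nearest tested genes on either side, *Timm44* and *Cers4*, had log2 differences of 0.02 (SE 0.05) and -0.08 (SE 0.11). None of these 3 genes was called.

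**Figure D4:**
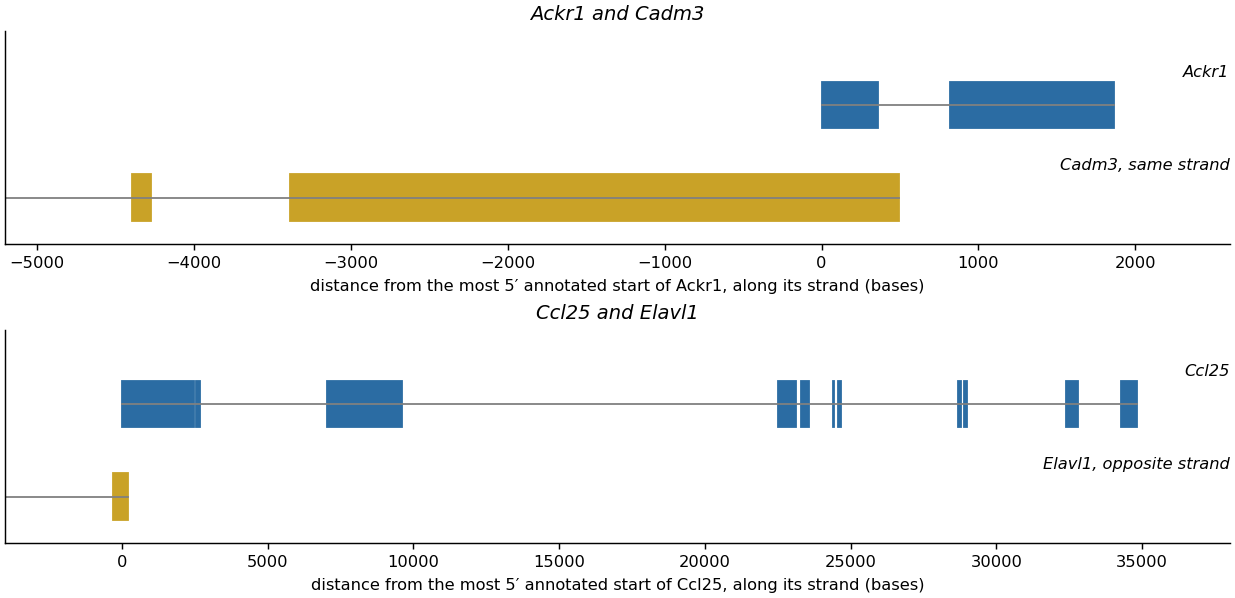
Annotated exons (boxes, all transcripts merged) of *Ackr1* with *Cadm3* and of *Ccl25* with *Elavl1*, by distance in bases from the most 5′ annotated start of *Ackr1* or *Ccl25* along its strand (x axis). The first exon block of *Ackr1*, 361 bases, lies inside the last exon of *Cadm3*, and *Ccl25* meets the first exon of *Elavl1* over 204 bases.

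*Ccl25* has annotated starts 24378 bases apart, and the 250 bases before the downstream one are shown because the composition before the starts differs (RefSeq, GRCm38.p6, chr8:4349338-4349587, plus strand, matched motifs in capitals).
*Ccl25* promoter: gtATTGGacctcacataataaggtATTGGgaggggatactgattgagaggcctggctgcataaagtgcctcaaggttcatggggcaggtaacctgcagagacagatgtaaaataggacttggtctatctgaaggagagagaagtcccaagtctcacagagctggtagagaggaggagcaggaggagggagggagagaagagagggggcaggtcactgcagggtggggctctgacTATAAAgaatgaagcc

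This window holds 0 CG pairs at 51.6% G and C, and the window before the upstream start, which overlaps *Elavl1*, holds 45 CG pairs at 74.8%. The median over all 32851 windows is 6 CG pairs. Searched on both strands, TATAAA occurred once, with its first base 16 bases before the start, and 12.4% of all windows hold it. CCAAT occurred 2 times, read as ATTGG on the printed strand, and 33.9% of windows hold it. GGGCGG (32.7% of windows), TTCNNNGAA (7.02%), an interferon-stimulated response element (2.98%) and a kappa B consensus (0.14%) were not in these letters. These matches describe the sequence and not the binding of any factor.

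The other loci were looked at in the same way. *Ccl27a* (chr4:41769467-41774247, minus strand) meets the end of *Il11ra1* over 8 bases on the opposite strand. *Galt*, an enzyme of galactose breakdown and the nearest tested gene at lower coordinates, had 65.2, 60.1 and 56.4 TPM in female *Dek* cKO mice and between 46.1 and 52.6 TPM in the other 9 libraries. Its log2 difference was 0.33 (SE 0.06) in females and -0.03 (SE 0.06) in males, and the interaction, 0.36, had an unadjusted p of 0.00169 and an adjusted p of 0.966 in limma. These values follow the sex labels, which female cKO replicate 3 (56.4 TPM) and male cKO replicate 1 (52.0 TPM) go against by *Eif2s3y*. No value of *Galt* without these libraries is given. *Cx3cl1* (chr8:94772009-94782427, plus strand) sits between 2 other chemokine genes. *Ccl22*, 20310 bases before it, was at 0.291 ± 0.0415 TPM in WT mice. *Ccl17*, 28026 bases after it, had 2.71 ± 0.607 TPM in WT and 3.42 ± 0.596 TPM in *Dek* cKO mice (SD, n = 6 each), with a log2 difference of 0.34 (SE 0.16, limma adjusted p = 0.775). The nearest tested genes of *Ackr3* (chr1:90203980-90216751), *Cxcl12* (chr6:117168535-117181367) and *Cxcl14* (chr13:56288643-56296551) were at least 36480 bases away, and none of them was called.

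The genes whose log2 values were most like each of the 7 over the 12 libraries were drawn from 14159 genes averaging 1 TPM or more. They share libraries, genotype and normalization with the gene they follow, so the correlations are given as a description. *Ccl25* was followed by *Wdr18* (Pearson r = 0.93), *Gm15319* (0.93) and *Mttp* (0.92), all 3 with a higher mean in *Dek* cKO mice. *Gm15319* was itself called, at 1.55 TPM in WT and 5.36 TPM in *Dek* cKO mice. *Ackr1* was followed by *Perm1* (0.94), *Dclk3* (0.94) and *Ovgp1* (0.93), with *Perm1* at 2.71 and 4.72 TPM and *Ovgp1* at 13.0 and 20.1 TPM in WT and *Dek* cKO mice. *Ccl27a* was followed by *Cry1* (0.93), *Herc6* (0.93) and *Gm11549* (0.93), and Spearman's rho was lower for these (0.70 to 0.73). *Cx3cl1* was followed by *Myh10* (0.96), *Ina* (0.94) and *Spg11* (0.94), with genotype means of 77.7 and 78.2 TPM for *Myh10* in WT and *Dek* cKO mice.

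For *Cxcl12*, *Ackr3* and *Cxcl14*, likeness was lower without male cKO replicate 3. *Iscu*, *Baalc* and *Kcnip3* followed *Cxcl14* at r of 0.91, 0.90 and 0.88, and at 0.83, 0.82 and 0.76 without it. *Kcnip3* was at 132 TPM in that library, against at most 81.6 TPM elsewhere. *Slc27a1*, *Fads2* and *Tnfrsf8* followed *Cxcl12* at r of 0.98, 0.97 and 0.97, and at 0.87, 0.68 and 0.65 without it. *Mt2*, *Cotl1* and *Lman2* followed *Ackr3* at r of 0.95, 0.94 and 0.94, and at 0.82, 0.79 and 0.77 without it. In that library *Mt2*, a metal-binding stress protein, was at 1088 TPM, against at most 462 TPM elsewhere, and *Slc27a1*, a fatty acid carrier, was at 8.11 TPM, against at least 14.2 TPM elsewhere.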

How the data were processed

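Hippocampal RNA of 12 mice was sequenced from poly-A selected libraries. Expression was deposited by the authors as TPM in 1 table, a column for each library. The submitters' processing notes name kallisto and mm10, whereas the methods of the study name STAR and Salmon, and which of them made the table is not given in the sources used here. TPM as deposited by the authors keeps no read counts, so the count test of the study could not be used. The depth of a library cannot be read from TPM, although the methods of the study state a read depth per sample. Genes were named by Ensembl ID through GENCODE M21, which held 25245 of 26409 IDs. Groups follow the labels, also for the 2 libraries whose Y-linked genes go against them.

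Values were tested as log2(TPM + 0.1) with limma (3.58.1, R 4.3.3), a trended prior variance and Benjamini-Hochberg adjustment, for genes averaging 0.1 TPM or more. Genotypes were compared as 6 against 6 libraries, and sexes, WT sexes and the interaction in 1 fit of 4 groups. The fit was tried on simulated data with independent normal noise in each gene and known changes added. The simulation held no outlying library and no library of conflicting sex, so it does not test the fit under these conditions. Summaries and permutation tests used scipy 1.17.1, numpy 2.4.6 and pandas 2.3.3 under Python 3.11.15.

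The 7 genes and all lists were chosen with earlier results of these data known. Named genes were the 7, their receptors and proteases, other chemokine genes that were called or passed the nominal rule, *Dek*, the 3 genes most alike to each of the 7, and overlapping or flanking genes. Other names were chosen after their values were seen. Sequences came from GENCODE M21 transcripts and RefSeq promoter windows. All 7 genes matched a promoter entry. Promoter letters were printed for 1 of them, since the others were not needed for a result or lie in another gene's untranslated region.

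Single choices were changed in turn. The alternatives were a replicate block, sex as a covariate, 0.5 or 1 TPM added, no filter, a filter at a mean of 1 TPM, quantile normalization, median ratio rescaling, no prior trend, CMV-named WT libraries only, both libraries of conflicting sex left out, a fit on 1 sex, and each library left out in turn.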

Additional observations from a re-analysis of the deposited data

Results flagged for a closer look

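In groups of 6 libraries of a genotype, a value was marked where its gap to the nearest other value was over 0.625 of the range of the group (Dixon's test), which chance does in about 1 of 20 groups. Of 74 groups looked at, 11 held such a value, and 8 of these values were in male cKO replicate 3. Of these 8 values, 6 are of genes shown because they stand out in that library, so their number says nothing about chance. Among the 14 groups of the 7 genes themselves, 2 held a marked value, *Ackr3* and *Cxcl12*. In that library the values were 14.8 TPM of *Ackr3*, 16.45 TPM of *Cxcl12*, 4.69 TPM of *Ccl2*, 3.756 TPM of *Ccl7*, 22.93 TPM of *Ccl12*, 26.52 TPM of *Cxcl10*, 1267 TPM of *Gfap* and 529 TPM of *Npy*. Its *Ccl25* (21.4 TPM) and *Ackr1* (71.2 TPM) were the highest of all 12 libraries but were not marked. In WT libraries the marked values were 0.3732 TPM of *Ccl22* in female replicate 3, 1.606 TPM of *Cxcl10* in male replicate 1 and 0.02409 TPM of *Sele* in female replicate 1.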

How the results depend on the processing

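The log2 differences between genotypes of all 7 genes moved by less than 1 SD between replicates under each of 23 alternatives, with *Ccl25* between 0.99 and 1.16 and *Ackr1* between 0.54 and 0.63. *Cxcl12* in males moved by more, from -0.35 to 0.16 without male cKO replicate 3, and *Cxcl14* in males from 0.03 to -0.09 without it. *Ccl25* met the calling rule under 20 of 23 alternatives and *Ackr1* under 21. Nothing is read from these counts, since both genes were chosen on this contrast and the alternatives reuse the same libraries. Same-numbered WT and *Dek* cKO libraries did not deviate together (correlations from -0.038 to 0.045), and the main fits treat the samples as unpaired. Deviations from the means of groups this small cannot exclude that the numbers pair the samples. With a replicate block 3 genes were called, neither *Ccl25* nor *Ackr1* among them, and 0 other chemokine genes passed the nominal rule.

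The number of genes called between genotypes was 27. It was 13 with no filter, 10 with CMV-named WT libraries only and 12 without both libraries of conflicting sex, and it lay between 13 and 27 when single libraries were left out, at 14 when female WT replicate 1 or female cKO replicate 1 was omitted, 13 when female cKO replicate 2 was omitted and 16 when male cKO replicate 1 was omitted. The nominal rule took in 381 genes as higher and 108 as lower, and in all 178 with a mean of at least 1 TPM, 243 with 0.5 TPM added and 114 with 1 TPM added. For the interaction 0 genes were called, but 4 with no filter, 2 without a prior trend, 3 without both conflicting libraries and 0 to 1 with a library left out (1 without female cKO replicate 2 and 1 without male cKO replicate 1). Between WT sexes 0 were called, but 3 with no filter, 3 without a prior trend, 4 without both conflicting libraries and 0 to 5 with a library left out (5 without female WT replicate 1 and 1 without male WT replicate 3). Of the other chemokine genes 1 passed the nominal rule, 2 with no filter, no prior trend, quantile normalization or sex as a covariate, 0 with a mean of at least 1 TPM or with 0.5 or 1 TPM added, and 0 to 3 with a library left out.

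Signs turned in 5 tested values, none of them past a threshold after the change. With a library left out, the difference between WT sexes ranged for *Ccl25* from -0.0223 (without male WT replicate 2) to 0.256 and for *Ccl27a* from -0.0059 (without female WT replicate 3) to 0.0562. The interaction of *Cxcl12* ranged from -0.0340 (without male cKO replicate 3) to 0.730. In WT libraries alone the log2 ratio of *Ackr1* over *Cxcl12* was -0.0320 and that of *Ccl25* over *Ackr3* was -0.0158. With a library left out the first ranged from 0.153 to 0.367 and the second from 0.346 to 0.496. Over all 12 libraries these ratios include the *Dek* cKO values on which *Ackr1* and *Ccl25* were chosen. Both missed the threshold without each of the 3 female cKO libraries and without male cKO replicate 1, and the first also without male cKO replicate 3. The cause of these shifts was not tested.

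The depth of a library cannot be read from TPM, and genes under 1 TPM, such as *Ccr9*, *Ccr10* and *Ackr4*, move most with the value added before the log2 transform.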
